A study of Homo sapiens with 6 samples.

Results

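The zinc finger genes of human chromosome 19 were taken from the deposited table as its protein-coding genes on that chromosome whose symbol is ZNF followed by a number, with at most 1 letter after it. The rule found 246 genes among 58735 in the table, between positions 2819874 and 58481230 of chromosome 19 (GRCh38). RNA sequencing covered 6 libraries of A549 cells, an established human lung adenocarcinoma line labelled as alveolar epithelial. In 3 libraries the cells had been given paraquat (PQ), a herbicide that redox-cycles to superoxide, and in the other 3 SS-31 was added, a short peptide that binds cardiolipin of the inner mitochondrial membrane. All 6 libraries therefore carry PQ, all are labelled 48 h, and no untreated library was analysed here. Doses are not given in the sources used here. Separate cultures are not stated for the replicates, so that the spread behind every p-value here may be technical. These are bulk libraries, in which fewer cells with a transcript and less transcript per cell cannot be told apart.

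C2H2 zinc finger proteins bind DNA through tandem fingers, each of which holds a zinc ion with a pair of cysteines and a pair of histidines. Many of those on chromosome 19 also carry a KRAB domain, which recruits the corepressor TRIM28 (KAP1) with the histone methyltransferase SETDB1 and HP1 proteins, and many KRAB proteins silence transposable elements in this way. The genes lie in tandem clusters that grew by duplication, and their transcripts are usually of low abundance. In the translated longest coding sequence of GENCODE 29, the 180 members that passed the filter on low counts held from 0 to 32 copies of the finger pattern, with a median of 12. The pattern was a cysteine pair separated by 2 or 4 residues, 12 further residues, and a histidine pair separated by 3 to 5 residues. A pattern for the KRAB domain was found in 206 of the 246 members and in 146 of the 180. The table's own column of transcription factor families lists 238 of the 246 as C2H2 zinc fingers.

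The finger that the family shares is shown as coding DNA for the 2 members with the smallest p among those lower with SS-31, since it is also the part in which family members resemble each other. Both stretches come from the GENCODE 29 transcripts (GRCh38, plus strand of chromosome 19), run 5′ to 3′ over 63 bases, and have in capitals the codons of the cysteine pair and the histidine pair.
ZNF473: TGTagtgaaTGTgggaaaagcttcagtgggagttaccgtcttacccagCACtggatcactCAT
ZNF274: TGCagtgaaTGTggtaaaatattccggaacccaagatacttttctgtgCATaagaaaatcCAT
The first spans bases 631 to 693 of the coding sequence of ZNF473 and the second bases 1525 to 1587 of that of ZNF274.

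Promoter windows are shown for ZNF274 and ZNF317, at lower levels with SS-31, and for ZNF324B and ZNF714, at higher levels, as examples from both directions of the comparison described below, chosen after their values were seen. Each window is the RefSeq sequence (GRCh38.p14) of 300 bases, 250 before and 50 after the start that RefSeq gives, on the plus strand of chromosome 19. In these genes that start differs from the deposited gene start. Capitals mark matches, on either strand, to the letters searched for 6 factors.
ZNF274, chr19:58182811-58183110: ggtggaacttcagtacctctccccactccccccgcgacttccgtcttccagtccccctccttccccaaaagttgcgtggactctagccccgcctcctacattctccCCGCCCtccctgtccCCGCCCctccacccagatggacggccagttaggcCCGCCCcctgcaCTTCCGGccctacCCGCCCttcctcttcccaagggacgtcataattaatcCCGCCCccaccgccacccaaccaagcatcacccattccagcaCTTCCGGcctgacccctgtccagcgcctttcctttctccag
ZNF317, chr19:9140147-9140446: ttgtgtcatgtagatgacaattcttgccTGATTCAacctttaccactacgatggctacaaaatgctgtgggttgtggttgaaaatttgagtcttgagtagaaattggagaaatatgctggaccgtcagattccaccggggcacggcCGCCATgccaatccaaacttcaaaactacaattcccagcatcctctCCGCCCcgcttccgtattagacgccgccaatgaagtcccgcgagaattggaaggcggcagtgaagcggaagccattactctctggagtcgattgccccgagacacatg
ZNF324B, chr19:58451372-58451671: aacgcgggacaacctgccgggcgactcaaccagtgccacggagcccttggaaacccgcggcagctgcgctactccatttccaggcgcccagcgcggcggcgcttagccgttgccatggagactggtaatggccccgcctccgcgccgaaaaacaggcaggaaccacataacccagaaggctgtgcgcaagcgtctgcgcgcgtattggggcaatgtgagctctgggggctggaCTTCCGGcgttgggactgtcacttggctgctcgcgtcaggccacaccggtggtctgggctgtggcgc
ZNF714, chr19:21081953-21082252: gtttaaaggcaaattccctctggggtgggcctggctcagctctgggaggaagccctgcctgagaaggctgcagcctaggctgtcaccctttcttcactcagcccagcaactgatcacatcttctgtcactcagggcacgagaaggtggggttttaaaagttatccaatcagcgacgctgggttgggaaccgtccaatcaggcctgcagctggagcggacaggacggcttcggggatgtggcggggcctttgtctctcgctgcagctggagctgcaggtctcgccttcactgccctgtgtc

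The letters searched were TGANTCA for AP-1, TGACGTCA for the CRE, CCGGAAG for ETS factors, ATGGCG for YY1, GCATGCGC for NRF1 and GGGCGG for SP1, and no pair of these spells the other. RefSeq windows were found for 161 of the 180 tested members. The ETS letters were in 47.8% of these windows, against 10.7% of all 27305 promoter windows, 18.4% of those of 10243 other tested protein-coding genes and 36.2% of those of 188 tested ZNF genes on other chromosomes. The CRE and YY1 letters ranked these sets in the same order as the ETS letters, and the AP-1, NRF1 and SP1 letters in other orders. For CRE and YY1, unlike ETS, the shares of the sets of tested genes lay close together. The CRE shares rest on 7 of 161 windows of the members and 7 of 188 of the other ZNF genes. The AP-1 letters were in 6.83% of the members' windows, 7.76% of all windows, 4.61% of those of the other tested protein-coding genes and 3.72% of those of the other ZNF genes. In the same order, the CRE letters were in 4.35%, 1.98%, 3.17% and 3.72% of windows, and the YY1 letters in 19.9%, 11%, 17.9% and 18.1%. The NRF1 letters were in 4.35%, 3.27%, 5.41% and 7.98%, and the SP1 letters in 60.2%, 44.6%, 70.6% and 62.8%. The members thus stood above all windows for CRE, YY1, NRF1 and SP1, but below both sets of tested genes for NRF1 and SP1. The median GC content of the windows was 61% for the members, 65.7% for the other tested protein-coding genes and 58.3% for all. A match says only that the letters are there.

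Total counts ran from 16332061 to 17576827 per library, and members held between 43239 and 48421 of them. As a check of the label, CDKN2A, which A549 cells lack, had 0 counts in all 6 libraries. The epithelial keratins KRT8 and KRT18 were abundant, at 1356 and 408 CPM (counts scaled by TMM-adjusted library size) with PQ and 1939 and 562 CPM with PQ+SS-31, while EPCAM stayed below 1 CPM. Of the 5 epithelial markers, CDH1 passed the test, at 13.6 and 24.4 CPM (edgeR adjusted p = 0.0389). KRT19 went the other way, at 14.9 CPM with PQ and 12.7 CPM with PQ+SS-31 (log2 fold change -0.23). The summed level of the 5, mostly KRT8 and KRT18, was 1637 to 1889 CPM with PQ and 2307 to 2681 CPM with PQ+SS-31. Of the defining markers of alveolar type 2 cells, NKX2-1 had 0 counts, and SFTPA1, SFTPA2, SFTPB and SFTPC had at most 6 counts in a library. ABCA3 was at 119 CPM with PQ and 108 CPM with PQ+SS-31, and NAPSA at 1.60 and 2.10 CPM. LAMP3 was at 5.31 and 2.55 CPM, without overlap between the groups (log2 fold change -1.06, edgeR adjusted p = 0.110). Leukocyte, fibroblast and endothelial markers were near the limit of detection apart from CD14 and COL1A1. These stood at 4.31 and 12.1 CPM with PQ and at 6.30 and 13.5 CPM with PQ+SS-31. The summed leukocyte markers stood at 3.48 to 4.83 CPM with PQ and 6.05 to 6.60 CPM with PQ+SS-31. Nearly all of this sum is CD14, since PTPRC and CD68 had at most 3 counts in a library. The part of these markers in the results was not tested. Mitochondrial genes held from 8.39% to 12.6% of counts per library. The nuclear RNA NEAT1 ranged from 152 to 884 CPM within the PQ group, highest in PQ replicate 3, and MALAT1 from 265 to 444 CPM.

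Most chromosome 19 ZNF genes were expressed in these cells, at low levels. Of the 246, 180 passed the filter on low counts and were tested, and 22 of the 66 others had 0 counts in all libraries. None of the 66 exceeded 16 counts in any library. Among the 180, the mean level over the 6 libraries ran from 0.615 to 329 CPM with a median of 8.68, against a median of 21.2 CPM over all 15550 tested genes. Per kilobase of gene length, the median level was 1.60 CPM against 5.61 CPM over the 13206 tested protein-coding genes.

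ZNF146 (OZF), a protein made almost wholly of fingers and overexpressed in some carcinomas, had the highest level per length at 83.1 CPM per kilobase with PQ and 75.6 with PQ+SS-31. In the PQ replicates 1, 2 and 3 its levels were 333, 370 and 330 CPM, and in the PQ+SS-31 replicates 287, 331 and 322 CPM. The groups overlapped, and its log2 fold change was -0.14 ± 0.10 (SE). ZNF581, ZNF865, ZNF787 and ZNF579 followed, at 25.9, 17.3, 16.7 and 16.2 CPM per kilobase with PQ and 21.2, 16.2, 14.4 and 13.7 with PQ+SS-31. All 5 of these genes lack the KRAB pattern in their longest coding sequence. ZNF146 overlaps ZNF565 in position, on the other strand, and no source used here says whether counting used strand.

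The contrast between both groups addresses the effect of adding SS-31 to cells under PQ. No single chromosome 19 ZNF gene passed the test, but their levels leaned to the lower side with SS-31: the log2 fold change, PQ+SS-31 minus PQ, was below 0 in 126 of 180 tested members (70.0%) and in 49.9% of all tested genes. The median log2 fold change was -0.13 over the members, with quartiles of -0.25 and 0.02, and 0.00 over all tested genes. With edgeR's quasi-likelihood F-test and p-values adjusted (Benjamini-Hochberg) over all tested genes, 0 of 180 members were called higher and 0 lower, where 0.592% of all tested genes were called in either direction, 0.129% higher and 0.463% lower. The smallest adjusted p among the members was 0.109. At an unadjusted p of 0.05, 15 members were lower (8.33%, against 5.94% of all tested genes) and 3 higher (1.67%, against 5.62%). The 15 became 31 without PQ replicate 3 and 9 with DESeq2, without PQ+SS-31 replicate 1 or without PQ+SS-31 replicate 3. The 3 became 1 without PQ+SS-31 replicate 2 or without PQ+SS-31 replicate 3. After adjustment, 1 member was lower with DESeq2, and with limma-voom 0 members passed. All 3 PQ libraries lay above all 3 PQ+SS-31 libraries in 23 members (12.8%, against 8.86% of all tested genes), and the reverse held in 3 (1.67%, against 9.16%). A list of genes described this way has no test of its own, and genes are not independent.

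**Figure D1:**
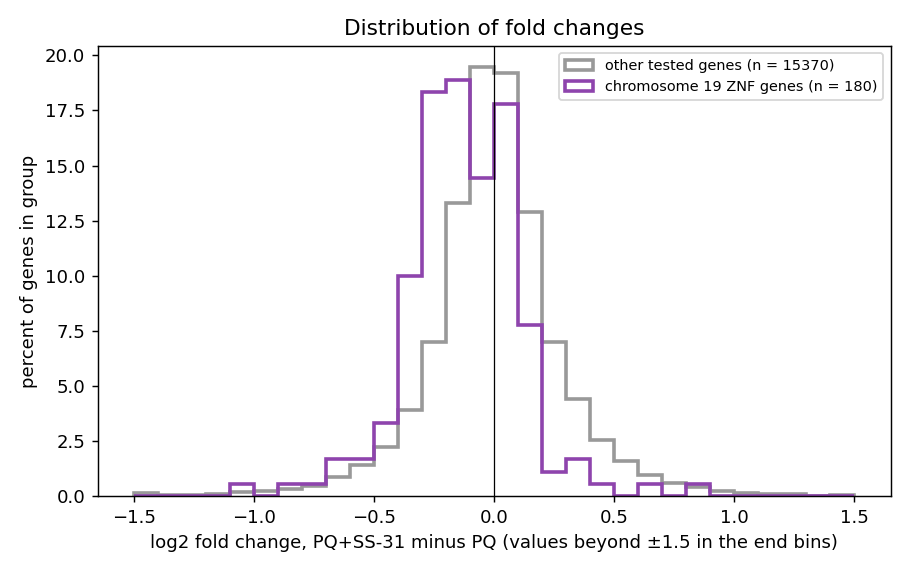
Percent of genes by log2 fold change (PQ+SS-31 minus PQ, bins of equal width) for the 180 tested chromosome 19 ZNF genes and the other tested genes. The members' median is -0.13 and that of all tested genes 0.00. The members run from -1.02 (ZNF880) to 0.83 (ZNF233).

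Single changes were small beside the spread between libraries. In 166 of the 180 members the difference of the group means on the log2 CPM scale was smaller than the range among the 3 libraries of at least one group. The median absolute difference was 0.163, and the median range was 0.387 within PQ and 0.325 within PQ+SS-31. The count of 166 and these medians were not computed over all tested genes, so they cannot be read as particular to the members.

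The member with the smallest p was ZNF473 (ZFP100), known as a component of the machinery that processes the ends of replication-dependent histone transcripts. ZNF473 (ENSG00000142528, chromosome 19, 50025714 to 50053414) stood at 27.9, 30.2 and 25.3 CPM in PQ replicates 1 to 3 and at 18.3, 19.8 and 20.9 CPM in the PQ+SS-31 replicates. Every PQ library lay above every PQ+SS-31 library. The means were 27.8 ± 2.43 and 19.7 ± 1.32 CPM (SD, n = 3), and the log2 fold change was -0.50 ± 0.11 (SE), with an edgeR adjusted p of 0.109. ZNF473 overlaps 3 other genes in position, 1 of them on its own strand. It was the only member past the threshold in any of the 17 alternatives: it passed without a filter on low counts (edgeR adjusted p = 0.0254), with DESeq2 (adjusted p = 0.0255), with offsets for GC content and gene length (edgeR adjusted p = 0.0499) and without PQ replicate 3 (edgeR adjusted p = 0.0292). Over all alternatives its adjusted p ran from 0.0254 to 0.443, and its log2 fold change from -0.57 to -0.44.

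ZNF274, a KRAB protein known to bind the ends of other zinc finger genes and to recruit SETDB1 there, came next. ZNF274 (ENSG00000171606, chromosome 19, 58183029 to 58213562) was at 59.4, 57.1 and 70.9 CPM in the PQ replicates and at 50.4, 48.4 and 45.9 CPM in the PQ+SS-31 replicates, without overlap. Its means were 62.5 ± 7.38 and 48.2 ± 2.26 CPM (SD, n = 3) and its log2 fold change -0.37 ± 0.10 (SE), with an edgeR adjusted p of 0.191.

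ZNF581, a small finger protein, stood at 44.6, 44.3 and 46.0 CPM in the PQ replicates and 34.6, 39.5 and 36.3 CPM with PQ+SS-31. The PQ libraries lay close together and above all others, with a log2 fold change of -0.29 ± 0.09 (SE). It overlaps 2 genes on its own strand, so part of its count may belong to them. ZNF317, a KRAB zinc finger gene, stood at 61.8, 62.7 and 56.9 CPM in the PQ replicates and 43.6, 52.4 and 50.5 CPM with PQ+SS-31, also without overlap, with a log2 fold change of -0.31 ± 0.10 (SE). ZNF628 was at 20.3, 19.7 and 21.1 CPM in the PQ replicates and 13.9, 15.9 and 18.6 CPM with PQ+SS-31. Its spread was wider with PQ+SS-31 than with PQ, and the groups did not overlap (log2 fold change -0.34 ± 0.13, SE).

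In ZNF134 the groups touched: it stood at 59.3, 57.3 and 48.2 CPM in the PQ replicates and 37.5, 48.8 and 45.1 CPM with PQ+SS-31, so that PQ+SS-31 replicate 2 exceeded PQ replicate 3. ZNF565 overlapped as well, at 4.63, 5.82 and 8.14 CPM in the PQ replicates and 4.63, 3.44 and 3.84 CPM with PQ+SS-31. ZNF235 was at 5.87, 5.75 and 6.75 CPM with PQ and at 4.57, 4.93 and 3.73 CPM with PQ+SS-31, without overlap. The log2 fold changes of ZNF134, ZNF565 and ZNF235 were -0.33 ± 0.12, -0.64 ± 0.24 and -0.47 ± 0.18 (SE), and their edgeR adjusted p-values were 0.347, 0.345 and 0.351.

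Fewer members were higher with SS-31. ZNF324B (ENSG00000249471, chromosome 19, 58451604 to 58457833) was at 4.39, 4.80 and 3.31 CPM in the PQ replicates and at 6.36, 6.35 and 6.81 CPM in the PQ+SS-31 replicates. The PQ+SS-31 libraries lay within a narrow band above all PQ libraries, and the log2 fold change was 0.64 ± 0.19 (SE) with an edgeR adjusted p of 0.209. It shares 10.8% of the 100-base words of its longest transcript with transcripts of other genes. ZNF714 (ENSG00000160352, chromosome 19, 21082159 to 21125270) was at 10.6, 9.99 and 8.14 CPM with PQ and at 11.7, 13.1 and 12.2 CPM with PQ+SS-31, again without overlap (log2 fold change 0.36 ± 0.14, SE, edgeR adjusted p = 0.373). It overlaps 2 genes, 1 of them on its own strand. ZNF233 was low, at 1.36, 0.822 and 0.698 CPM with PQ and 1.97, 1.66 and 1.51 CPM with PQ+SS-31. These were the 3 members in which PQ+SS-31 lay wholly above PQ. The next 5 by p, ZNF566, ZNF430, ZNF584, ZNF850 and ZNF283, had log2 fold changes from 0.11 to 0.24 and overlapping groups.

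**Figure D2:**
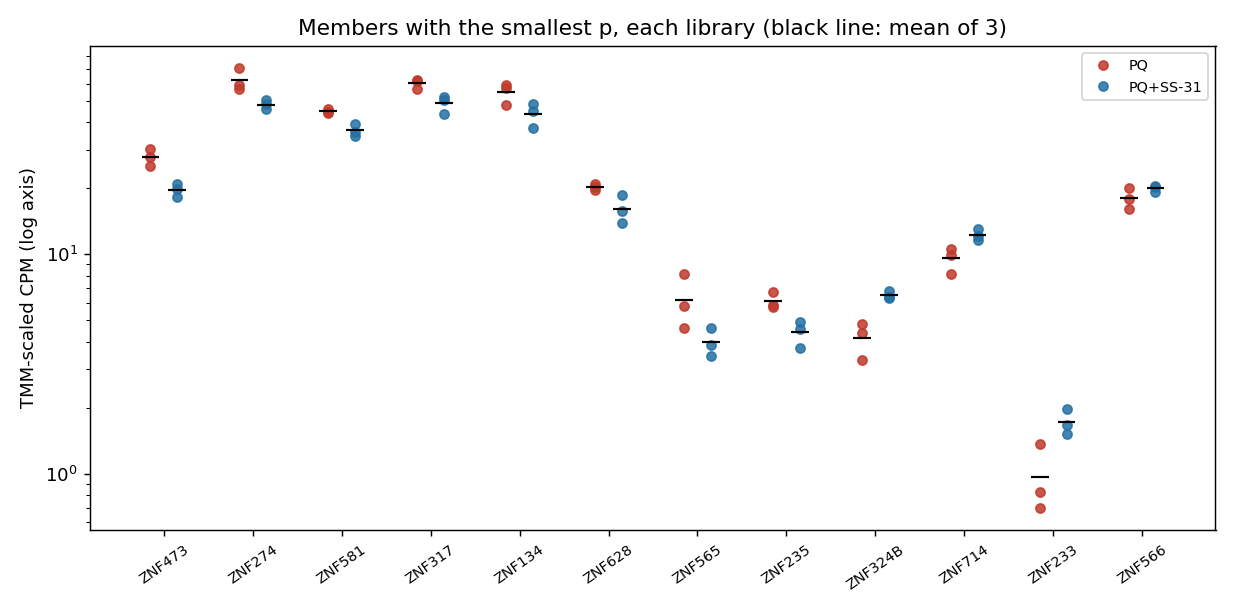
TMM-scaled CPM (log axis) of 12 chromosome 19 ZNF genes, the 8 lower and the first 4 higher with SS-31 by p, with 1 point per library and a black line at the mean of 3 libraries. The points of both groups are apart for ZNF473, at 25.3 CPM or more with PQ and 20.9 CPM or less with PQ+SS-31, and meet for ZNF134, ZNF565 and ZNF566.

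Along the chromosome, members fell into 16 runs when a gap of over 1 Mb between neighbouring starts began a new run, and 9 of the runs held at least 5 members. These 9 clusters, numbered from the short-arm end, held 235 of the 246 members. The share that was expressed differed from cluster to cluster. All 24 members of cluster 7 (43525497 to 45076588) and 55 of 59 of cluster 9 (55476332 to 58481230) passed the filter. Only 13 of 37 members of cluster 4 (19668796 to 24129961) and 8 of 25 of cluster 3 (11483427 to 12640098) passed, with 10 and 7 members at 0 counts in all libraries. The median level of the tested members ran from 0.571 CPM per kilobase in cluster 4 to 2.74 CPM per kilobase in cluster 5 (34677639 to 34964049).

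The median log2 fold change was below 0 in 8 of the 9 clusters. It was lowest in cluster 8 (51571298 to 53580269), at -0.21, where 23 of 27 tested members were negative. In cluster 8, PQ lay wholly above PQ+SS-31 in 6 of the 27 (8.86% over all tested genes) and PQ+SS-31 above PQ in 0 (9.16%). Its members ran from -1.02 to 0.14, and the lowest was ZNF880, at 0.831, 0.632 and 1.28 CPM with PQ and 0.463, 0.534 and 0.349 CPM with PQ+SS-31. The levels of ZNF880 are so low that its SE was 0.42 on the log2 scale. Cluster 9, with the most members, had a median of -0.15, with 41 of 55 negative, and PQ wholly above in 8 (8.86% over all tested genes). Past an unadjusted p of 0.05, 7 of the 55 were lower and 1 higher, beside 5.94% and 5.62% of all tested genes.

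Cluster 2 (7069444 to 9793180), which holds ZNF317, had a median of -0.16 with 10 of 13 negative. Cluster 6 (36182060 to 37817300), which holds ZNF146 and ZNF565, had a median of -0.14 with 17 of 22 negative, and PQ lay wholly above in 3 of the 22, beside 8.86% of all tested genes. Cluster 3 had a median of -0.20 with 5 of 8 negative, which moved to -0.066 without PQ replicate 2 and to -0.086 with a filter of 1 CPM in 3 libraries. The small clusters 1 (2819874 to 2944971) and 5 had medians of -0.16 and -0.10 over 4 and 5 tested members. Within clusters 1, 3 and 5 the members with the smallest p were ZNF77, ZNF627 and ZNF30, with log2 fold changes of -0.31 ± 0.28, -0.19 ± 0.15 and -0.21 ± 0.12 (SE).

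Cluster 7 was close to 0, with a median of -0.04 and 14 of 24 members negative, and holds both ZNF233, its highest member, and ZNF235. ZNF233 (44259880 to 44275317) lies within the span of ZNF235 (44228729 to 44305046), on the other strand. Since the strand setting of the counting is not known, the counts of ZNF233 and ZNF235 may not be fully separate. Cluster 4, near the centromere, had a positive median of 0.14, with 11 of 13 tested members positive. Only ZNF714 among them passed an unadjusted p of 0.05. The cluster 4 median moved to 0.020 without PQ replicate 3, and ranged from 0.020 to 0.11 over the refits without 1 library. The difference between clusters was not tested, and members of a cluster are related copies rather than independent genes.

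**Figure D3:**
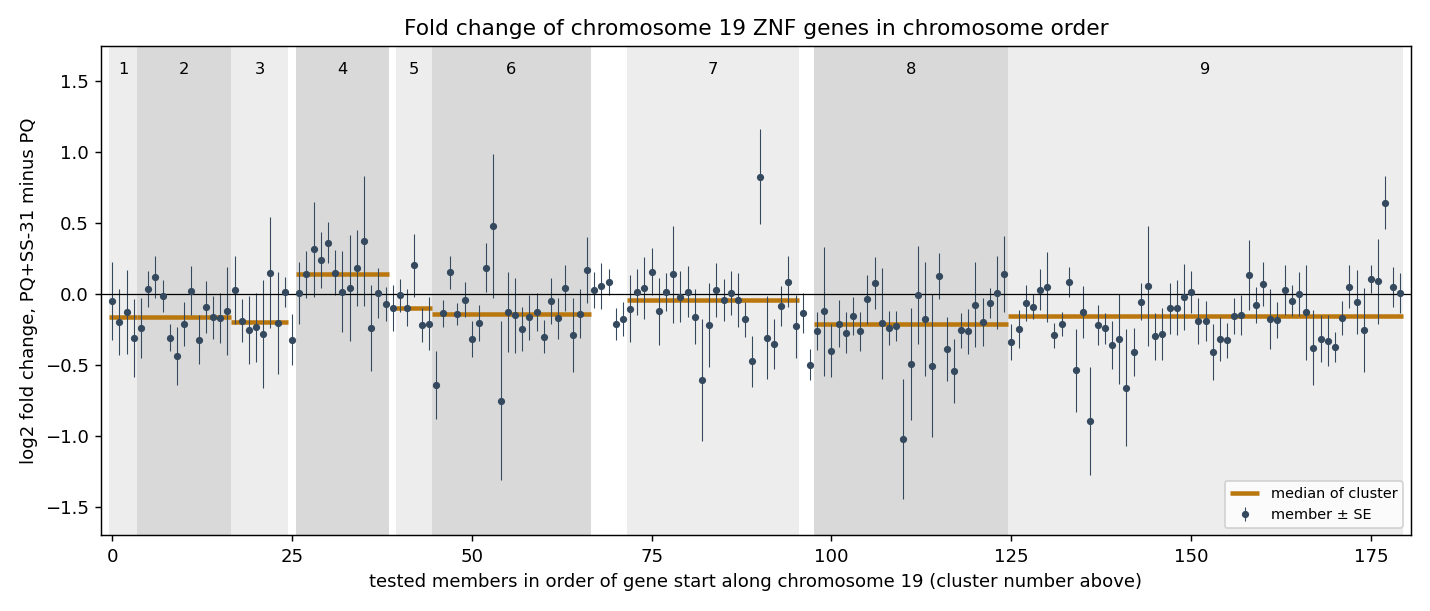
Log2 fold change (PQ+SS-31 minus PQ, with SE) of each of the 180 tested members in order of gene start, with grey bands for the 9 clusters and an orange bar at the median of each. The bars lie below 0 in 8 clusters, lowest in cluster 8 at -0.21, and above 0 in cluster 4 at 0.14.

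Neighbouring members within a run shared little of their pattern over the 6 libraries. The median correlation of their deviations was 0.166 over 165 neighbouring pairs, against 0.105 over all pairs of tested members, each over 6 libraries that all pairs have in common. Fold change also followed no other property of the genes closely. Across the 180 genes, Spearman's rho with the log2 fold change was -0.095 for the number of fingers, -0.086 for GC content, 0.05 for gene length, 0.014 for mean level and -0.127 for order along the chromosome. These are descriptions across genes that share the same libraries. The median log2 fold change was -0.14 in the 146 members with the KRAB pattern and -0.10 in the 34 without it. It was -0.13 both in the 123 members with a mean of at least 5 CPM and in the 57 below. Members whose promoter window held the ETS letters had a median of -0.12 and those without them -0.13.

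Related copies and overlapping genes leave some of these counts uncertain. Of the 180 tested members, 13 shared over 20% of the 100-base words of their longest transcript with a transcript of another gene, and 124 overlapped another gene in position, 72 of them on the same strand. The median log2 fold change was -0.15 in the 104 members that shared at most 1% of words, with 71 negative, and -0.17 in the 56 members with no overlapping gene, with 39 negative.

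The members shifted between libraries of 1 group as well as between groups. As a median over the 180 members, the deviation from the mean of the 6 libraries was 0.03, 0.12 and 0.03 on the log2 CPM scale in PQ replicates 1 to 3, and -0.08, -0.03 and -0.04 in the PQ+SS-31 replicates. PQ replicate 2 stood above the other PQ libraries by a step of the same order as that between the groups. In this median each PQ library lay above each PQ+SS-31 library. Taken cluster by cluster, that order held in clusters 6, 8 and 9 and in none of the others. PQ replicate 2 was the highest library in 60 of the 180 members and PQ+SS-31 replicate 1 the lowest in 56. The summed level of all 246 members was 2790, 2945 and 2816 CPM in the PQ replicates and 2502, 2666 and 2637 CPM in the PQ+SS-31 replicates. As a share of each library's total, without scaling, members held 0.278%, 0.283% and 0.296% with PQ and 0.261%, 0.257% and 0.258% with PQ+SS-31. On this unscaled measure PQ replicate 3, not PQ replicate 2, was the highest.

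Single members differed far more than that within a group. ZNF460, at 3.80, 3.35 and 1.57 CPM with PQ and 1.97, 2.55 and 0.990 CPM with PQ+SS-31, had a range of 1.27 on the log2 scale within PQ+SS-31. ZNF805, ZNF418 and ZNF221 had ranges of 1.11, 1.07 and 1.06 within one of the groups. Replicate 3 was the lowest library of both groups in ZNF460 and ZNF221 and the highest of both in ZNF418. In these genes replicate 3 thus stood at the same end in both groups. In ZNF805 replicate 2 was the highest library of both groups, but the lowest was PQ replicate 3 and PQ+SS-31 replicate 1. The labels do not tie replicate numbers of the groups to each other.

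Other gene groups also shifted between libraries, each in its own way. The 228 tested ZNF genes of other chromosomes had a median log2 fold change of -0.08, with 161 (70.6%) negative. Past an unadjusted p of 0.05, 23 of them were lower (10.1%, against 5.94% of all tested genes) and 2 higher (0.877%, against 5.62%). PQ lay wholly above PQ+SS-31 in 39 of them (17.1%, against 8.86% of all tested genes and 12.8% of the members). The reverse held in 5 (2.19%, against 9.16% and 1.67%). Their deviations were 0.06, 0.11 and -0.01 with PQ and -0.06, 0.00 and -0.06 with PQ+SS-31, so that PQ replicate 3 lay below PQ+SS-31 replicate 2. The lower lean was thus also present in ZNF genes elsewhere, and the difference between both sets was not tested. The 790 other tested protein-coding genes of chromosome 19 had a median of 0.06, with 310 (39.2%) negative, and their lowest library was PQ replicate 2, at -0.13. Ribosomal protein genes had a median of 0.00 over 80 genes, with deviations from -0.14 in PQ+SS-31 replicate 3 to 0.19 in PQ+SS-31 replicate 1.

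Base composition also moved with the libraries. The members have a median transcript GC content of 42.8%, against 48.7% over all tested genes. The 3807 non-members in the lowest quartile of GC content had deviations of 0.01, 0.09 and -0.05 with PQ and -0.04, 0.03 and -0.02 with PQ+SS-31, so that PQ replicate 2 was also their highest library, and they had a median log2 fold change of -0.03. The part of GC content in the members' shift between libraries was not tested beyond the offsets and the split that follow. With per-library offsets for GC content and gene length, the median of the members was -0.12, with 127 of 180 negative. In the 63 members with a GC content of at least 45%, the median log2 fold change was -0.14 and the highest library was PQ replicate 3, at 0.09, while in the 117 below 45% the median was -0.13 and the highest library PQ replicate 2, at 0.14.

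**Figure D4:**
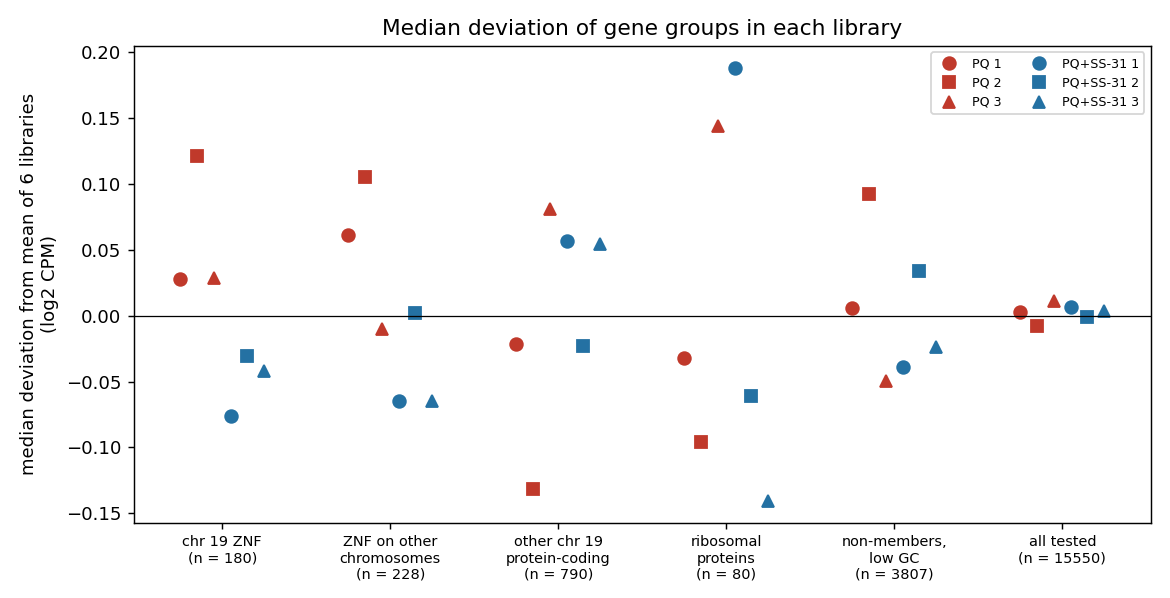
Median deviation from the mean of the 6 libraries (log2 CPM) for 6 sets of genes, with 1 point per library, PQ in red and PQ+SS-31 in blue. For chromosome 19 ZNF genes the PQ points, 0.03 to 0.12, lie above the PQ+SS-31 points, -0.08 to -0.03, while in the other sets the groups overlap.

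The partners of KRAB zinc finger proteins had a median log2 fold change slightly above 0, and none passed the test. Of the corepressor list, made of TRIM28, SETDB1, HP1 proteins, the NuRD and histone deacetylase subunits, histone and DNA methyltransferases and the HUSH and MORC silencing factors, 43 genes were tested. edgeR called 0 of them in either direction, and an unadjusted p of 0.05 was passed by 3 that were higher and 2 that were lower, beside 5.62% and 5.94% of all tested genes. The median log2 fold change was 0.07, with 33 of 43 positive. TRIM28 was at 493 ± 10.8 CPM with PQ and 540 ± 57.8 CPM with PQ+SS-31 (log2 fold change 0.13 ± 0.10, SE), and SETDB1 at 26.3 ± 0.135 and 27.9 ± 3.50 CPM (0.09 ± 0.11, SE). The smallest p-values belonged to KIAA1551 (RESF1), a partner of SETDB1, at 63.1 ± 5.34 and 43.7 ± 3.24 CPM (edgeR adjusted p = 0.0614), and to MORC3, a nuclear ATPase of gene silencing, at 49.2 ± 3.64 and 37.5 ± 0.236 CPM (edgeR adjusted p = 0.115). DNMT1, the maintenance DNA methyltransferase, was at 95.2 ± 2.54 and 118 ± 8.98 CPM, and SUV39H1, a histone H3 lysine methyltransferase, at 12.7 ± 2.31 and 16.6 ± 1.45 CPM, and neither passed.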

How the data were processed

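Raw gene counts of the 6 libraries were deposited by the authors in 1 table. The submitters' processing notes list featureCounts 1.5.0-p3, HISAT2 2.0.5, DESeq2 1.20.0 and CASAVA. They also list mm10, a mouse build, whereas all 58735 gene positions match GENCODE 29 on GRCh38. The library kit and strand setting are not given in the sources used here. Columns were matched to samples by group letter and replicate number, and 0 sample columns went unused. Genes kept by filterByExpr (15550) were scaled with TMM factors and tested with edgeR 4.0.16 (R 4.3.3) by the quasi-likelihood test, Benjamini-Hochberg adjustment over all of them and a threshold of 0.05. CPM are TMM-scaled, given as mean ± SD over 3 libraries, with a prior count of 2 on the log2 scale, and SE was derived from the test statistic. Levels per length divide by the deposited gene length, a value of another kind than the counts. Promoters came from RefSeq. Fingers were counted in translated GENCODE 29 coding sequences in place of the RefSeq proteins first planned.

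Named members were the 8 with the smallest p in each direction, the smallest p per cluster, the 5 highest levels per length and the 4 widest ranges within a group at a mean of at least 2 CPM. The promoters, sequences and motifs shown, the KRAB pattern, and the splits by GC content, level, shared words and overlap were chosen after values were seen. The members and lists were chosen with earlier results of these data known. Alternatives were RLE factors, library size alone, no filter, 1 CPM in 3 libraries, DESeq2 1.42.0, limma-voom (limma 3.58.1), the replicate number as a block, loess offsets for GC content and gene length (span 0.5) with and without the block, protein-coding genes alone, mitochondrial genes left out, and each library left out. The scripts were tested on simulated data. Between 2 libraries of a group, chi-square divided by its degrees of freedom was 6.88 to 32.2, above sampling noise, and all 6 entered as separate samples.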

Additional observations from a re-analysis of the deposited data

How the results depend on the processing

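The members' median log2 fold change stayed between -0.15 and -0.12 under the 11 alternatives that keep all libraries and between -0.14 and -0.11 without 1 library, and from 66.1% to 74.9% of tested members were negative. Members called were 0 higher in every alternative, and 1 lower (ZNF473) without a filter, with DESeq2, with GC and length offsets and, among refits without 1 library (0 to 1), without PQ replicate 3. Over all tested genes, 20 higher and 72 lower became 13 higher with library size alone, 156 and 237 without a filter, 123 and 207 with DESeq2, 61 and 138 with GC and length offsets, 36 higher with protein-coding genes alone, and 0 to 125 and 0 to 203 without 1 library. With the replicate number as a block they were 66 and 134, and with that block and GC and length offsets 100 and 180, with 0 members called in either fit. Same-numbered libraries of the groups correlated at -0.092, 0.392 and 0.191, and 0.392, for number 2, was the highest value between any libraries of both groups. Neither PQ replicate 1 nor PQ replicate 3 correlated best with its own number, which also held for PQ+SS-31 replicate 1. With 3 libraries per group, these mixed values cannot decide whether the numbers pair the samples. The median of all tested genes was -0.012 with library size alone, -0.0075 without a filter, and -0.0042 to 0.0090 without 1 library. Library size alone set the members' deviation at 0.067 in PQ replicate 2, 0.10 in PQ replicate 3, -0.013 in PQ+SS-31 replicate 1 and -0.079 in PQ+SS-31 replicate 2. The cluster 3 median was -0.086 with 1 CPM in 3 libraries and -0.21 to -0.066 without 1 library, that of cluster 4 was 0.020 to 0.11 and that of cluster 9 was -0.17 to -0.12. ZNF418 (-0.45 to 0.11 without 1 library) and ZNF221 (-0.094 to 0.49) changed sign when PQ replicate 3 (0.11 and -0.094) or PQ+SS-31 replicate 2 (0.11 and -0.079) was left out. The cause of these moves was not tested.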
